A study of Mus musculus with 12 samples.

Results

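A set of 10 genes of the importin, exportin and Ran system were examined in mouse cortex by RNAseq. They were *Kpna1*, *Kpna2*, *Kpna3*, *Kpna4* and *Kpna6*, which encode importin α adaptors, *Kpnb1* and *Tnpo1*, which encode the carriers importin β and transportin, the exportin gene *Xpo1*, and *Ran* and *Rangap1*. The 10 genes were taken by symbol from a list of known transport factors, and all 10 passed the filter on low values, out of 28222 genes with a value above 0 in at least 1 library. The study compared WT mice with *Gde2*KO mice, which lack the six-transmembrane enzyme GDE2 (gene *Gdpd5*) through a constitutive knockout, at 4 months and at 19 months, with 3 cortical libraries in each of the 4 groups. No treatment was given, and male and female mice were used without the sex of a library being stated. Each library was made from polyA RNA, and the study counts 3 animals per genotype for the 19-month libraries, while for the 4-month libraries the labels do not say whether each came from 1 animal.

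Proteins too large to diffuse through the nuclear pore are carried by receptors of the importin β family. An importin α binds the nuclear localization signal of a cargo and links it to importin β, whereas transportin and exportins bind their cargoes directly. The small GTPase Ran sets the direction, because Ran is bound to GTP in the nucleus, where it releases import cargo and joins export complexes, and RanGAP1 triggers GTP hydrolysis on the cytoplasmic side of the pore. Nucleocytoplasmic transport (NCT) has drawn attention in neurons because nuclear proteins such as TDP-43 enter the nucleus by this route. The study asked whether NCT is disturbed in *Gde2*KO neurons, and the comparisons below give the mRNA side of that question for these 10 genes. In bulk tissue, fewer cells expressing a gene and less RNA per cell cannot be told apart.

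Several libraries stood apart. At 19 months, 1 WT library (A) and 1 *Gde2*KO library (A) held only 6734475 and 3707928 estimated reads, against 36915259 to 44604721 in the other 4 and 46434270 to 59728494 at 4 months. At 4 months, *Gde2*KO libraries 1 and 3 had less RNA on transcripts annotated as non-coding, which took 9.92% and 8.03% of the TPM (a level corrected for transcript length) of all genes with a coding transcript, against 11.5% to 11.97% in the other 4. WT libraries 1 and 2 had summed TPM of 196 and 172 for 8 hippocampal markers, against 16.7 to 31.04 in the other 4 of that age. For 10 striatal markers these WT libraries had 281 and 170, against 1149 to 2936. All 8 cortical excitatory neuron markers were present, with a summed TPM of 945 to 1624 over the 12 libraries. *Gdpd5* itself had 684, 702 and 1199 normalized counts in WT and 417, 585 and 403 in *Gde2*KO at 4 months. At 19 months it had 1065, 1129 and 952 in WT and 441, 456 and 560 in *Gde2*KO, so that the genotypes did not overlap at either age. The decrease in *Gdpd5* was called at 19 months only (log2 fold change -1.11 ± 0.12 SE, adjusted p = 0.0111, limma). At 4 months the value was -0.85 ± 0.25 (adjusted p = 0.463, limma).

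*Kpna2* needed a separate look at its sequence. Its leading transcript, of 2054 bases and 11 exons, comes from chromosome 11 (GRCm38, 106988629 to 106999541, minus strand). Aligned to the GENCODE vM21 transcripts, it was 99.898% identical over 1968 bases, without a gap, to *Gm10184*, a copy with a single exon that the annotation tags as a retrogene, on chromosome 17 (89908462 to 89910449, minus strand). The aligned stretch held 2 differences, both in exon 7 within the coding sequence and 45 bases apart. They are A902G and C947T, with the *Kpna2* base first and positions counted from 1 at the 5′ end of the *Kpna2* transcript. The 66 bases that hold both differences are shown because they are the stretch in which reads from the aligned part can be assigned to one gene or the other. Capitals mark the differing bases, and both are printed 5′ to 3′ from the minus strand, *Kpna2* at chr11:106991248-106991313 and *Gm10184* at chr17:89909566-89909631.
Kpna2: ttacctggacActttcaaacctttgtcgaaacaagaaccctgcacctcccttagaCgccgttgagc
Gm10184: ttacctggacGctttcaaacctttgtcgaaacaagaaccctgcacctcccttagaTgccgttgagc
A read pair that covers neither difference, and lies within the aligned bases, matches both genes equally well, and Kallisto then divides it by estimation. A second copy, *Gm10259*, was 99.811% identical over 1590 bases. Another 11 genes resembled *Kpna2* at 91.7% to 96.9%. Of these, *Med20* (92.6% over 1891 bases) had a mean of 893 normalized counts, summed over all its transcripts whether or not they resemble *Kpna2*. In such gene totals the 13 resembling genes together came to 120.6% of the normalized counts of *Kpna2*, most of it from *Med20*. The 11 genes were left out of the sums given for *Kpna2*, and *Med20* is named after its values were seen. Of the other 9 genes, *Kpna1*, *Kpna3*, *Kpna4*, *Kpna6*, *Xpo1* and *Rangap1* had no gene of at least 90% identity over 300 bases. The copies of *Ran* and *Tnpo1* carried 0.125% and 0.0484% of their normalized counts. A match of 422 bases between *Kpnb1* and *Gm11583* was not analysed here.

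Compared per length, the GTPase and its activating protein were the most abundant of the 10 mRNAs. In WT cortex at 4 months, *Rangap1* had 148 ± 8.33 TPM and *Ran* 144 ± 10.2 TPM (SD, n = 3), and the ranges of the pair overlapped. *Kpnb1* followed with 73.5 ± 6.78 TPM, clear of *Ran* but not of *Kpna4*. The importin α genes lay between 59.0 TPM for *Kpna4* and 28.0 TPM for *Kpna2*. *Kpna4* and *Kpna1* (58.7 TPM) overlapped. Below and clear of *Kpna1*, the ranges of *Kpna3* (46.6 TPM) and *Kpna6* (39.8 TPM) overlapped, as did those of *Kpna6* and the exportin gene *Xpo1* (38.5 TPM). *Kpna2* and, last, *Tnpo1* with 19.4 ± 0.47 TPM stood clear of the genes above them. *Rangap1*, *Ran* and *Kpnb1* kept the first 3 places in all 4 groups. *Tnpo1* was lowest in 3 groups, and in *Gde2*KO at 19 months its range overlapped that of *Kpna2*, which was lowest there with 17.7 ± 2.59 TPM.

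**Figure D1:**
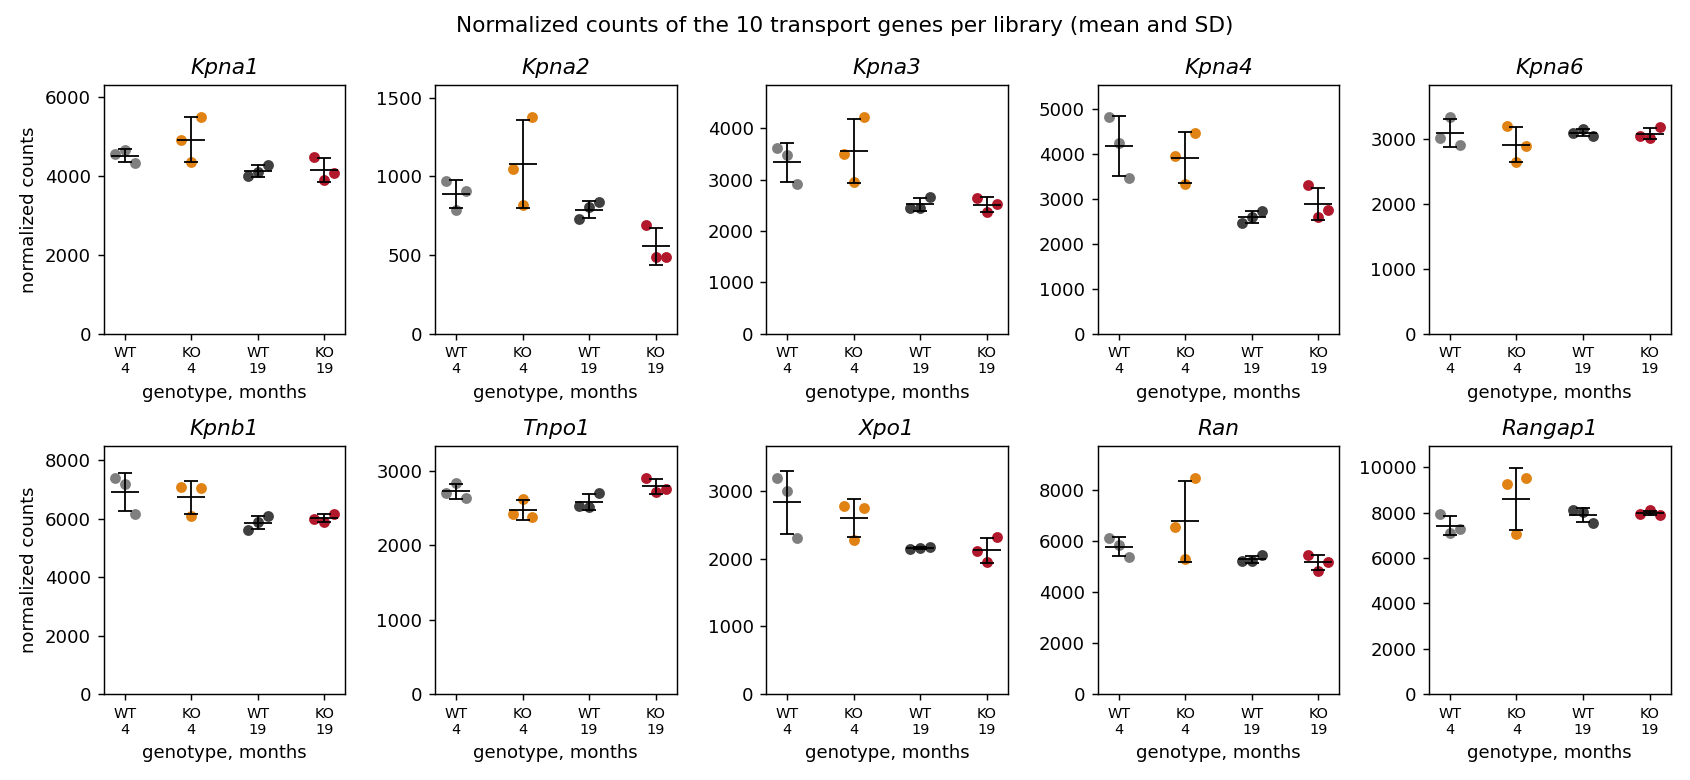
Normalized counts of the 10 genes in each library (points) with the group mean and SD (bars), for WT and *Gde2*KO at 4 and 19 months. The 4-month *Gde2*KO group spreads widely for *Kpna2* (818 to 1375) and *Ran* (5294 to 8456), and *Kpna2* is low in *Gde2*KO at 19 months (486 to 692).

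Whether loss of GDE2 changes the mRNA of these factors before old age was tested at 4 months. None of the 10 genes was called, where a call needed an adjusted p (Benjamini-Hochberg over all genes) under 0.1 and a fold change beyond 0.721 on the log2 scale. Over all genes tested, 0.126% were called. No gene of the 10 had an unadjusted p under 0.05 either, against 2025 of 19035 genes tested (limma). Adjusted p ranged from 0.549 to 0.908 (limma), and 5 genes were higher and 5 lower in *Gde2*KO. Values are differences of log2(normalized count + 0.5), and the median over all genes was itself 0.11 higher in *Gde2*KO at this age. The median over the 10 genes was 0.02.

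Among the importin α genes at 4 months, *Kpna2* had 967, 789 and 906 normalized counts in WT and 1049, 818 and 1375 in *Gde2*KO. The groups overlapped, and the high value was that of library 3, which also stood apart in its non-coding share. The log2 difference was 0.26, with a 95% interval from -0.21 to 0.72 (adjusted p = 0.560, limma). *Kpna1* differed by 0.12, *Kpna3* by 0.08, *Kpna4* by -0.09 and *Kpna6* by -0.09, each with an interval that included 0. The intervals ran from -0.18 to 0.42 for *Kpna1*, from -0.30 to 0.46 for *Kpna3*, from -0.48 to 0.30 for *Kpna4* and from -0.38 to 0.21 for *Kpna6*.

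Among the carriers at 4 months, *Kpnb1*, whose product takes importin α and its cargo through the pore, had 7386, 7174 and 6160 normalized counts in WT and 7078, 6087 and 7052 in *Gde2*KO, a log2 difference of -0.03 ± 0.13 (SE). *Tnpo1*, whose product is an import carrier, had 2708, 2837 and 2641 in WT and 2426, 2625 and 2377 in *Gde2*KO. All 3 *Gde2*KO libraries lay below the 3 WT libraries, though library 2 did so by a narrow margin. *Tnpo1* was the single gene of the 10 whose groups did not overlap, where 15.4% of all genes tested had groups that did not. Its log2 difference was -0.14, with a 95% interval from -0.40 to 0.12 (adjusted p = 0.572, limma). *Xpo1*, the exportin for leucine-rich export signals, had 3185, 2992 and 2309 in WT and 2776, 2279 and 2747 in *Gde2*KO, and the groups overlapped.

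*Ran* had 6126, 5824 and 5371 normalized counts in WT and 6536, 5294 and 8456 in *Gde2*KO at 4 months. *Rangap1* had 7922, 7097 and 7267 in WT and 9263, 7049 and 9518 in *Gde2*KO. For both genes, in these normalized counts, *Gde2*KO library 2 lay below all WT libraries and libraries 1 and 3 lay above them. The log2 differences were 0.20 ± 0.18 (SE) for *Ran* (adjusted p = 0.601, limma) and 0.20 ± 0.15 for *Rangap1* (adjusted p = 0.549, limma). With median-of-ratios scaling, which lowers libraries 1 and 3, they were 0.09 for *Ran* and 0.09 for *Rangap1*. Without *Gde2*KO libraries 1 and 3, a fit in which the remaining *Gde2*KO library is assumed to vary like WT, these values were -0.12 and -0.07 with no call. In that fit *Kpna1* differed by -0.05, *Kpna2* by -0.11 and *Kpna3* by -0.17. Every gene of the set then had a lower fitted value in *Gde2*KO. Without WT libraries 1 and 2, again with no call, that of *Kpna4* turned from -0.09 to 0.16, that of *Kpnb1* from -0.03 to 0.13 and that of *Xpo1* from -0.11 to 0.17. The part of the marker levels and of the non-coding share in these values was not tested.

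**Figure D2:**
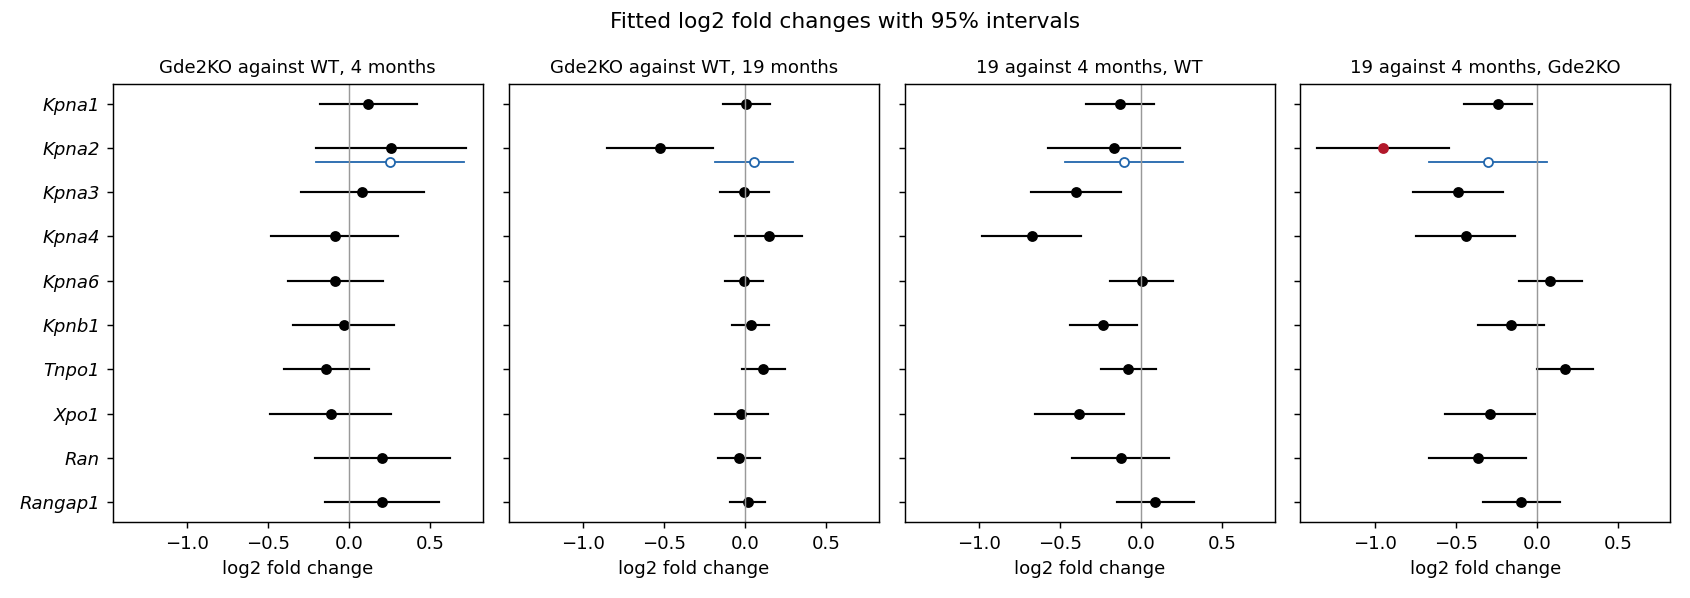
Fitted log2 fold changes of the 10 genes with 95% intervals in 4 comparisons (one panel each); filled points are the genes as annotated, red where called, and open blue points are *Kpna2* summed with its copies of at least 99% identity. At 19 months *Kpna2* stands at -0.52 and its sum at 0.05, and in *Gde2*KO between ages at -0.95 and -0.30.

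In aged cortex, where the study looked for splicing defects, the libraries of a group lay closer together for most of these genes. None of the 10 genes was called at 19 months (adjusted p from 0.582 to 0.992, limma), against 0.0969% of all genes tested. *Kpna2* alone had an unadjusted p under 0.05, against 1285 of 18583 genes tested (limma). Of these genes, 8 differed by -0.04 to 0.11 on the log2 scale, *Kpna4* by 0.14 and *Kpna2* by -0.52. The 95% intervals were 0.11 to 0.33 wide on each side of the estimate, less than the 0.26 to 0.46 at 4 months. *Kpna2* and *Tnpo1* had groups that did not overlap, 2 of 10 genes against 14.2% of all genes tested.

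*Ran* at 19 months had 5212, 5203 and 5450 normalized counts in WT and 5449, 4837 and 5189 in *Gde2*KO. The groups overlapped, and the log2 difference was -0.04 with a 95% interval from -0.17 to 0.09. *Rangap1* had 8136, 8018 and 7543 in WT and 7952, 8104 and 7913 in *Gde2*KO, a difference of 0.02 with an interval from -0.09 to 0.12. *Kpnb1* had 5623, 5885 and 6096 in WT and 5988, 5884 and 6158 in *Gde2*KO, a difference of 0.03 with an interval from -0.08 to 0.15. For these 3 genes the intervals ran from a fold of 0.890 (*Ran*) to 1.11 (*Kpnb1*). *Xpo1* had 2134, 2153 and 2171 in WT and 2107, 1949 and 2318 in *Gde2*KO, and the *Gde2*KO values lay on both sides of WT.

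*Tnpo1* at 19 months had 2530, 2519 and 2708 normalized counts in WT and 2903, 2718 and 2756 in *Gde2*KO. Here the *Gde2*KO libraries were the higher ones, the opposite order to 4 months, by a log2 difference of 0.11 (95% interval from -0.02 to 0.24, adjusted p = 0.730, limma). *Gde2*KO library B was above WT library C by a narrow margin, and the highest value was that of the shallow *Gde2*KO library A. Without both shallow libraries the log2 difference was 0.07. Tested directly, the difference between the genotype effects at the 2 ages was 0.25 ± 0.11 (SE) on the log2 scale (adjusted p = 0.383, limma) and was not called. None of the 10 genes was called in this interaction test, in which 0.048% of all genes were. An unadjusted p under 0.05 was seen for 2 of the 10 (*Kpna2* and *Tnpo1*), against 2408 of 18731 genes tested (limma).

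*Kpna2* at 19 months had 727, 805 and 835 normalized counts in WT and 692, 488 and 486 in *Gde2*KO. All *Gde2*KO libraries lay below WT, libraries B and C by a wide margin and the shallow library A, in which *Kpna2* rests on 83.4 estimated reads, by a narrow one. The log2 difference was -0.52 ± 0.14 (SE, adjusted p = 0.582, limma). Without the 2 shallow libraries it was -0.75 and was called (adjusted p = 0.0431, limma). The genotype by age interaction of *Kpna2* was -0.78 ± 0.26 (adjusted p = 0.368, limma).

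The copy *Gm10184* moved the other way. It had 18, 8 and 0 normalized counts in WT and 5, 5 and 0 in *Gde2*KO at 4 months. At 19 months it had 0, 80 and 56 in WT and 96, 405 and 413 in *Gde2*KO. Its share of the pair was at most 1.81% at 4 months and at most 9.05% in WT at 19 months, against 12.2%, 45.4% and 46.0% in *Gde2*KO at 19 months. The fit gave *Gm10184* a log2 difference of 4.26 ± 1.71 (SE) between genotypes at 19 months (adjusted p = 0.711, limma), a value that depends on the pseudocount because 1 WT library is at 0. Between ages in *Gde2*KO the fit gave it 6.69 ± 1.84 (adjusted p = 0.0269, limma), which passed both criteria of a call and likewise depends on the pseudocount, with 1 of the 4-month libraries at 0.

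Summed with both copies, *Kpna2* had 727, 886 and 891 normalized counts in WT and 788, 893 and 913 in *Gde2*KO at 19 months. The groups then overlapped, with *Gde2*KO the slightly higher, and the log2 difference was 0.05 with a 95% interval from -0.19 to 0.30 (adjusted p = 0.893, limma). The interaction of the sum was -0.20 ± 0.24 (adjusted p = 0.682, limma). At 4 months the sum and the gene alone gave nearly the same difference, 0.25 and 0.26. Whether the reads came from *Gm10184*, or from *Kpna2* and were assigned to it, was not tested.

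**Figure D3:**
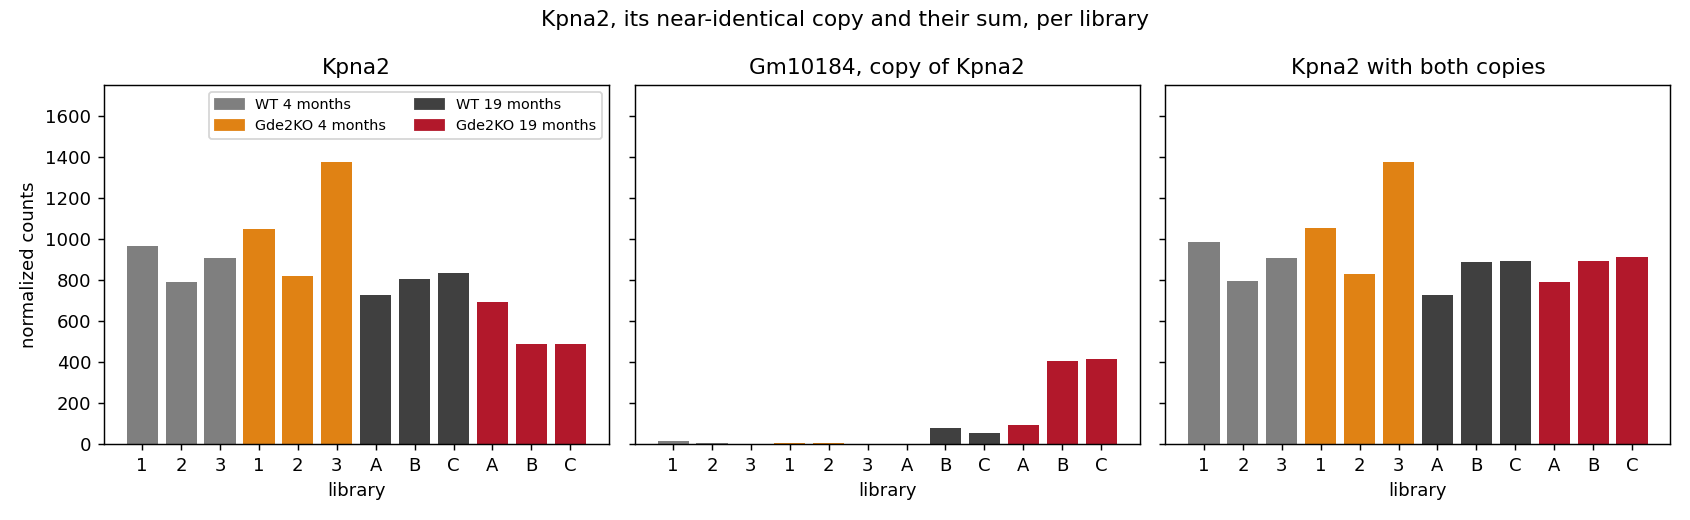
Normalized counts of *Kpna2*, of its copy *Gm10184* and of *Kpna2* with both copies of at least 99% identity, per library (bars, coloured by group; 1 to 3 are the 4-month and A to C the 19-month libraries). In the 3 *Gde2*KO libraries at 19 months *Gm10184* reaches 96, 405 and 413, and the sums of 788 to 913 lie among the WT sums of 727 to 891 or just above them.

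With age, the fitted values of most of these genes were lower, as was the median over all genes. In WT, 8 of the 10 genes had lower fitted values at 19 than at 4 months. None was called, where 13.7% of all genes tested were. The median log2 difference was -0.15 over the 10 genes and -0.07 over all genes. How many of all genes were lower was not counted. By adjusted p under 0.1 alone, *Kpna3*, *Kpna4* and *Xpo1* were lower, 3 of 10 genes against 15.1% of all genes, and none was higher. The groups of 5 genes did not overlap, against 46.0% of all genes tested. Age moved with other features of the libraries. The non-coding share over all genes was 13.03% to 13.5% at 19 months, above that of every 4-month library. In *Gde2*KO the summed TPM of the 10 striatal markers was 1149 to 2936 at 4 months and 342 to 769 at 19 months. In WT it was 170 to 2115 at 4 months and 270 to 367 at 19 months. The part of these features in the age differences was not tested.

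*Kpna4*, an importin α for NF-κB among other cargoes, had 4818, 4252 and 3472 normalized counts in WT at 4 months and 2470, 2595 and 2738 at 19 months. The log2 difference was -0.67 ± 0.14 (SE, adjusted p = 0.00875, limma), just under the fold needed for a call. *Kpna3*, its closest relative in the family, had 3627, 3486 and 2907 at 4 months and 2441, 2455 and 2664 at 19 months, a difference of -0.40 ± 0.13 (adjusted p = 0.0472, limma). *Xpo1* had 3185, 2992 and 2309 at 4 months and 2134, 2153 and 2171 at 19 months, a difference of -0.38 ± 0.13 (adjusted p = 0.0550, limma). In all 3 genes WT library 3 was the lowest of the 4-month WT libraries, and libraries 1 and 2, those with more hippocampal and less striatal marker RNA, were the highest. Without libraries 1 and 2, a fit in which the lone 4-month WT library is assumed to vary like the other groups, the differences were -0.42, -0.21 and -0.10, and none passed an adjusted p of 0.1 (0.304, 0.653 and 0.820, limma). Without library 3, *Kpna4* fell by 0.80 on the log2 scale and was called (limma).

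In *Gde2*KO, 8 of the 10 genes again had lower fitted values at 19 months, beside a median of -0.21 over all genes. With median-of-ratios scaling, 6 of the 10 were lower. *Kpna2* was the single gene called, where 11.9% of all genes were. From 1049, 818 and 1375 normalized counts at 4 months it fell to 692, 488 and 486 at 19 months, a log2 difference of -0.95 ± 0.19 (SE, adjusted p = 0.00881, limma). The call was lost when the copies were added, with sums of 1054, 831 and 1375 at 4 months and 788, 893 and 913 at 19 months and a log2 difference of -0.30 (95% interval from -0.67 to 0.06, adjusted p = 0.203, limma). It was also lost without the 4-month *Gde2*KO libraries 1 and 3 (-0.58, adjusted p = 0.166, limma). In WT the corresponding differences were -0.17 for *Kpna2* and -0.10 for the sum, and neither was called.

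By adjusted p alone, *Kpna1*, *Kpna2*, *Kpna3*, *Kpna4* and *Ran* were lower at 19 months in *Gde2*KO, 5 of 10 genes against 24.9% of all genes. *Kpna3* differed by -0.49 ± 0.13 (SE, adjusted p = 0.0226, limma), *Kpna4* by -0.44 ± 0.14, *Ran* by -0.37 ± 0.14 and *Kpna1* by -0.24 ± 0.10. Without the 4-month *Gde2*KO libraries 1 and 3, again with a lone library assumed to vary like the others, these were -0.24, -0.22, -0.04 and -0.07, and none of the 4 passed (adjusted p from 0.346 to 0.859, limma). The groups of 4 genes did not overlap, namely *Kpna2*, *Kpna3*, *Kpna4* and, as the one that was higher at 19 months, *Tnpo1*, against 41.2% of all genes tested. The median gene was itself 0.21 lower at 19 months in this comparison. Relative to that median, *Kpna3* lay at -0.28, *Kpna4* at -0.23, *Ran* at -0.16 and *Kpna1* at -0.03. With median-of-ratios scaling, *Kpna2* and *Kpna3* stayed below an adjusted p of 0.1 as lower, *Kpna6* and *Tnpo1* joined them as higher, and *Kpnb1* and *Rangap1* turned from lower to higher fitted values that did not pass. The share of higher genes among all calls moved from 21.5% to 43.6% with that scaling. The differences between WT and *Gde2*KO in these age effects are those of the interaction test above, in which no gene was called.

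The importin α proteins are partly interchangeable adaptors, so the makeup of their mRNAs was followed as a share of the summed TPM of the 5 genes. The sum ran from 201.2 to 247 TPM at 4 months and from 167 to 196 TPM at 19 months, lower in every 19-month library. *Kpna1* took 23.5% to 29.6% of it in the 12 libraries. *Kpna4* took 22.9% to 27.8% in WT and 22.3% to 24.2% in *Gde2*KO at 4 months. At 19 months its share was 18.9% to 19.5% in WT and 20.5% to 21.4% in *Gde2*KO. *Kpna6* went the other way, from 15.98% to 18.03% in WT at 4 months to 19.6% to 22.7% at 19 months, while its normalized counts in WT differed by 0.01 on the log2 scale. *Kpna2* took 9.16% to 10.5% in *Gde2*KO at 19 months, against 13.01% to 14.2% in WT of that age, and with its copies 11.9% to 16.1% against 13.01% to 15.3%. These shares are given without a test, and a share of a sum rises when the other genes fall.

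**Figure D4:**
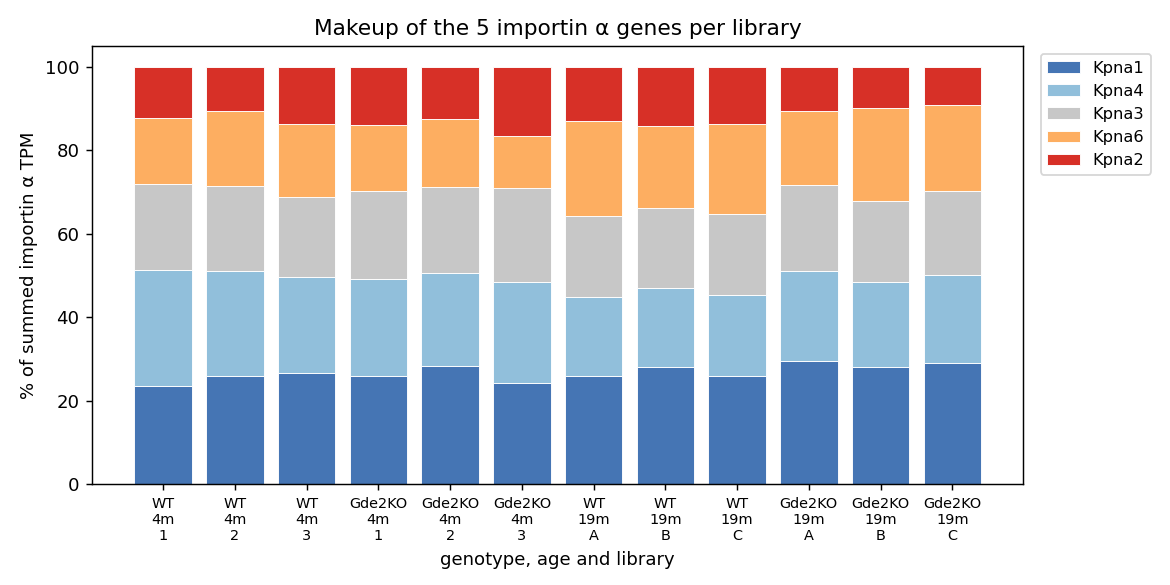
Share of each importin α gene in the summed TPM of the 5 genes (stacked bars, % on the y axis, 1 bar per library), as annotated. The *Kpna4* share is smaller and the *Kpna6* share larger at 19 months than at 4 months in WT, and the *Kpna2* share is 9.16% to 10.5% in *Gde2*KO at 19 months.

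Each gene was dominated by 1 coding transcript, which held a median of 73.7% (*Kpna6*) to 98.4% (*Kpna3*) of its TPM, except *Xpo1*. The leading *Xpo1* transcript held 34.2% to 51.3% in 11 libraries and 5.23% in the shallow WT library A. It held 46.4% in the still shallower *Gde2*KO library A, and the part of depth in the low share was not tested. No gene of the 10 was called for changed transcript usage (diffSplice in limma, adjusted p under 0.1 with a shift of more than 10 points in TPM share), against 1.12% of all genes tested at 4 months and 0.171% at 19 months. At 4 months 3 genes had an unadjusted p under 0.05, *Kpna1*, *Kpna6* and *Rangap1*, and at 19 months none had. How many of all genes did so is not given here. The smallest p was that of *Kpna6* at 4 months, whose leading transcript held 68.5%, 69.4% and 71.8% in WT and 82.2%, 74.8% and 85.2% in *Gde2*KO (adjusted p = 0.195, limma). All 3 *Gde2*KO libraries were above WT, and libraries 1 and 3 were the highest. Such a separation was not particular to *Kpna6*. At 4 months the leading transcripts of *Kpna2*, *Kpnb1*, *Tnpo1* and *Xpo1* were also above WT in every *Gde2*KO library, and that of *Rangap1* was below. How often this occurs over all genes was not counted.

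Non-coding transcripts held 5.61%, 5.99% and 5.09% of the summed TPM of the 10 genes in WT at 4 months and 2.66%, 5.70% and 2.02% in *Gde2*KO. *Gde2*KO library 2 lay within the WT range and libraries 1 and 3 below it. Retained-intron transcripts alone held 3.76%, 3.85% and 3.60% in WT and 2.09%, 3.89% and 1.65% in *Gde2*KO at 4 months. At 19 months the share was 4.13% to 5.62% with no separation of the genotypes. The gap was also seen in *Kpna1*, at 14.1% to 18.5% in WT and 4.04%, 4.39% and 17.6% in *Gde2*KO, and in *Kpnb1*, at 13.8% to 14.5% in WT and 5.78%, 7.13% and 12.4% in *Gde2*KO. In *Kpnb1* the whole non-coding share was on retained-intron transcripts, while in *Kpna1* these held only 1.79% to 3.73% at 4 months. The part of the non-coding share in the 4-month differences was not tested.

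**Figure D5:**
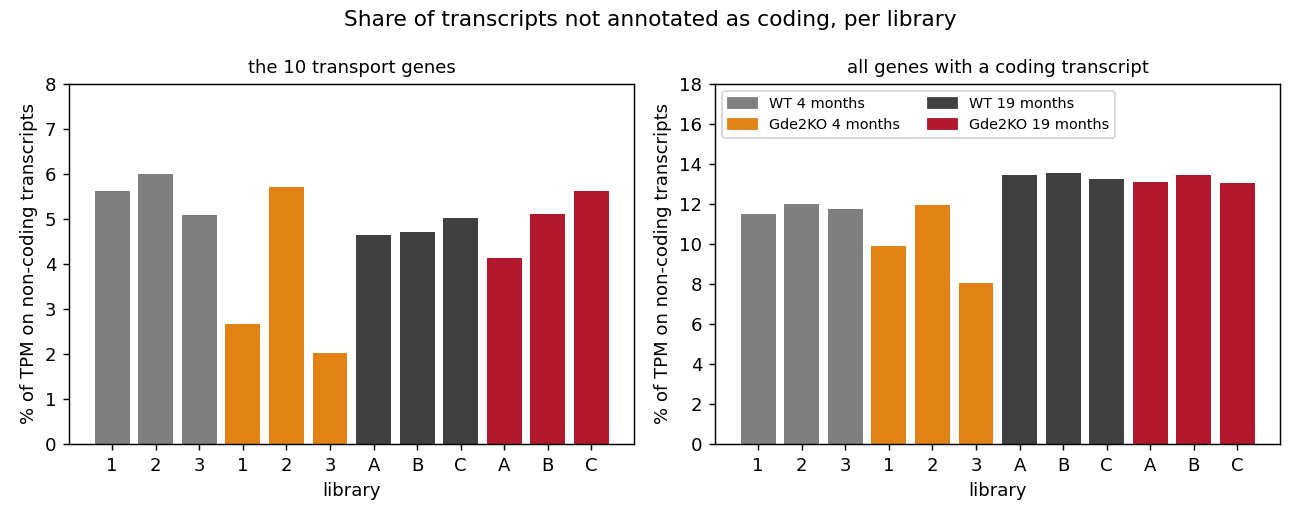
Share of TPM on transcripts not annotated as protein-coding, retained-intron transcripts included, for the 10 genes (left) and for all genes with a coding transcript (right), per library (bars, coloured by group). *Gde2*KO libraries 1 and 3 at 4 months are lowest in both panels, with 2.66% and 2.02% for the 10 genes.

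The rest of the transport machinery was followed in a list of 30 genes, of which 29 passed the filter, made up of other importins and exportins, Ran regulators and carriers, bulk mRNA export factors and the importin α gene *Kpna7*, which did not pass it. None of the 29 was called in any of the 5 comparisons (limma). Over all genes, 0.126% were called at 4 months, 0.0969% at 19 months and 0.048% in the interaction. For age, 13.7% were called in WT and 11.9% in *Gde2*KO. Among the 29, an unadjusted p under 0.05 was seen for 0 at 4 months, 1 at 19 months and 1 in the interaction. Over all genes it was seen for 2025 of 19035, 1285 of 18583 and 2408 of 18731 (limma). The median log2 difference of the 29 between genotypes was 0.03 at 4 months, beside 0.11 over all genes. At 19 months it was -0.01, beside -0.02. At 4 months the smallest p was that of *Alyref*, an adaptor for mRNA export, with 721, 707 and 790 normalized counts in WT and 854, 815 and 1087 in *Gde2*KO (log2 difference 0.30, adjusted p = 0.476, limma). The next was *Rcc1*, the exchange factor that loads Ran with GTP on chromatin, with 385, 402 and 440 in WT and 448, 441 and 655 in *Gde2*KO (0.31, adjusted p = 0.504, limma). For both genes the groups did not overlap in these normalized counts, and *Gde2*KO library 3 was the highest. *Gde2*KO libraries 1 and 3 have median-of-ratios factors of 1.08 and 1.17. Whether the groups stay apart after that scaling was not tested. Of the 29, the groups were also apart for *Xpo6*, which was lower in *Gde2*KO (-0.18). Over all genes tested, 15.4% had groups that did not overlap.

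At 19 months the smallest p among the 29 was that of *Ranbp2*, the large pore protein that anchors RanGAP1 at the cytoplasmic face. It had 3844, 4240 and 4543 normalized counts in WT and 5127, 4535 and 4957 in *Gde2*KO, a log2 difference of 0.21 (adjusted p = 0.668, limma), and the groups overlapped at 1 library each. *Rcc1* came next with 415, 473 and 465 in WT and 290, 432 and 423 in *Gde2*KO (-0.26, adjusted p = 0.734, limma). In the interaction test the smallest p values were those of *Rcc1* (-0.57, adjusted p = 0.387, limma) and of the exportin gene *Xpo6* (0.22, adjusted p = 0.425, limma). With age, 9 of the 29 passed an adjusted p of 0.1 in WT, 2 higher and 7 lower, where over all genes 13.1% were higher and 15.1% lower. In *Gde2*KO 13 passed, 3 higher and 10 lower, where over all genes 7.45% were higher and 24.9% lower. *Nxf1*, the main mRNA export receptor, was higher at 19 months in both genotypes, by 0.45 ± 0.09 in WT and 0.50 ± 0.09 in *Gde2*KO (SE, adjusted p = 0.00912 and 0.00700, limma), and is named after its values were seen.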

How the data were processed

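Cortical polyA RNA of WT and *Gde2*KO mice was sequenced in 12 libraries, 3 for each genotype at 4 and 19 months. The deposited tables hold a signal per transcript, namely Kallisto estimated counts and TPM against the GRCm38 transcriptome, each divided by the authors' Sleuth size factor, so neither is a raw count. The submitters' processing notes also name bcl2fastq 2.17, Trimmomatic 0.36 and STAR 2.5.2b. The 19-month columns give a genotype but no replicate number and are called A, B and C.

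Transcripts were summed to 36047 genes. Transcripts with no gene held 0.541% to 0.605% of each total and were left out. The value of 1 read was taken as the commonest low value of a library (0.597 to 0.721 normalized counts at 4 months, 0.702 to 8.29 at 19 months), which gave the estimated reads. Genes with 5 or more normalized counts in at least 47% of the libraries were fitted as log2(value + 0.5) with limma 3.58.1 (R 4.3.3) with an intensity trend, for genotype within each age and for age and the interaction over all 12 libraries. P-values were adjusted by Benjamini-Hochberg over all genes tested. A call needed an adjusted p under 0.1 and a natural log fold change beyond 0.5, after the study's own thresholds, and for the interaction the adjusted p alone. SDs, SEs and 95% intervals reflect the spread between libraries, which may be technical, and an exact permutation test of 3 against 3 libraries cannot go below p = 0.1. Copies were sought with blastn 2.17.0+ at 90% identity and 300 bases. Transcript types came from GENCODE vM21, matching 98.5% of transcripts. Scripts were tested on simulated data, in which 4-fold rises and falls of well expressed genes were recovered at the real depths. Every difference between genotypes among the 10 genes was smaller than that, and recovery of smaller changes was not simulated. The usage test missed some changes in simulated data at the real 19-month depths and recovered all at equal depths.

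The 10 genes and the lists were chosen with earlier results of these data known. Named beyond the 10 were *Gdpd5*, other transport genes that were called, and the 2 of smallest p in each genotype comparison and in the interaction. *Nxf1* and *Med20* fall outside this rule and were named after their values were seen. Equal replicate numbers at 4 months did not deviate together (r = 0.06, 0.01 and -0.05 over 19035 genes), so no pairing was used. Alternatives covered the pseudocount, filter, scaling, TPM, variance model, call rule and left-out libraries. Sums with copies and fits without pairs of 4-month libraries were added after seeing the data.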

Additional observations from a re-analysis of the deposited data

How the results depend on the processing

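The number of genes called among the 10 was 0 at 4 months under every alternative run, including the fit with replicate number as a block, and 0 or 1 elsewhere with the exceptions given here. At 19 months it rose from 0 to 1 (*Kpna2*) without both libraries of low depth. In the interaction it rose from 0 to 3 (*Kpna2*, *Rangap1* and *Tnpo1*) with array weights, which called 6460 of all genes against 9, 2420 against 24 at 4 months, 57 against 18 at 19 months and 4125 against 2565 for age in WT. For age in WT it rose from 0 to 1 (*Kpna4*) with TPM, to 3 by adjusted p alone, and lay between 0 and 1 with a library left out (1 without WT library 3 at 4 months). For age in *Gde2*KO it rose from 1 to 5 by adjusted p alone and dropped to 0 with *Kpna2* summed with its copies and without *Gde2*KO libraries 1 and 3 at 4 months. *Kpna2* was called for age in *Gde2*KO under the other 22 alternatives. Transcript usage at 4 months went from 0 to 1 (*Kpna6*) with the Simes adjustment, and between 0 and 2 with a library left out (*Kpna1* and *Kpna6* without *Gde2*KO library 2). The block gave 21 calls over all genes at 4 months, against 24, and the numbers do not pair the libraries. No paired analysis was possible at 19 months because the columns carry no replicate numbers. The causes of these shifts were not tested.

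No called value changed sign. Among 1023 values of single genes under alternatives, 59 values that were not called had the opposite sign to the reported one. Depth limited library A of each 19-month group, in which 1 read was worth 4.66 and 8.29 normalized counts. Over all genes, leaving out WT library 3 at 4 months gave 1510 calls at 4 months and 2029 in the interaction, and leaving out any other single library gave 5 to 15 and 6 to 15. At 19 months leaving out single libraries gave 9 to 45 calls, and without both libraries of low depth 34. For age, calls by adjusted p alone were 5279 in WT and 6053 in *Gde2*KO against 2565 and 2224. By both criteria they were 1525 to 3096 in WT and 1096 to 2851 in *Gde2*KO with a library left out, 1692 in WT for genes with a mean of 50 or more, 517 without WT libraries 1 and 2 and 532 without *Gde2*KO libraries 1 and 3 at 4 months. At 4 months 12 genes were called with no filter on low values and 12 without a trend, and at 19 months 7 without a trend.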
